A study of Mus musculus with 2 samples.

Results

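The miR-181 family was described in adrenal glands of mice aged 10 days, from the 6 genes Mir181a-1, Mir181b-1, Mir181a-2, Mir181b-2, Mir181c and Mir181d out of 2202 miRNA genes in the count tables. The members were chosen by symbol in GENCODE M21 and not by their values. MicroRNA (miRNA) sequencing had been done on total RNA of adrenal glands of male B6CASTF1/J mice, first-generation hybrids of the B6 and CAST strains, from The Jackson Laboratory. The series held 1 group of 2 libraries, each labelled with a different male and numbered as biological replicates 1 and 2. Both males carry the same donor record, no treatment is named, and whether glands were pooled is not stated. With a single untreated group, the comparisons are among the genes of the family and between the libraries.

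A miRNA gene is transcribed into a long precursor, from which a hairpin is cut. The hairpin yields short RNAs from its arms, 5p and 3p, and the arm loaded into Argonaute guides it to messenger RNAs that pair with the seed, bases 2 to 8 of the mature miRNA. The miR-181 family is widely expressed in vertebrates and best known for tuning T cell receptor signalling during lymphocyte development, with further roles described in brain and blood vessels. Its genes lie in 3 paralog clusters, each holding a pair of hairpins, and the a and b hairpins exist in duplicate copies.

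The 5p arms are shown first, because they carry the seed that defines the family and decide which genes can be counted apart. Sequences are from RefSeq (GRCm38.p6), which held mature forms of all 6 genes, and capitals mark the seed.
miR-181a-5p (Mir181a-1 and Mir181a-2): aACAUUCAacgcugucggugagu
miR-181b-5p (Mir181b-1 and Mir181b-2): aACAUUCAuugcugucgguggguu
miR-181c-5p (Mir181c): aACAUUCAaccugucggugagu
miR-181d-5p (Mir181d): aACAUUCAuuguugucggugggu
All 6 genes shared this seed, and in the RefSeq table these 6 genes alone had a mature form with it. The sequences therefore matched the family label. Counted from the 5′ end, miR-181b-5p and miR-181d-5p differed by the single substitution C12U over 23 positions, and miR-181a-5p and miR-181b-5p by A9U, C10U and A21G. Both Mir181a genes gave an identical 5p arm, and so did both Mir181b genes.

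The 3p arms, the partner strands of the hairpins, are shown because they differ between the copies. Here capitals mark the bases that differ within each pair.
miR-181a-1-3p (Mir181a-1): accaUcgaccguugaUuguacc
miR-181a-2-3p (Mir181a-2): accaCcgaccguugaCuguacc
miR-181b-1-3p (Mir181b-1): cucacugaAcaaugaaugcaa
miR-181b-2-3p (Mir181b-2): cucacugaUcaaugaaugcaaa
The a pair differed by U5C and U16C and the b pair by A9U. The 3p seeds were not common to the family: Mir181a-1 and Mir181c shared CCAUCGA, both Mir181b genes shared UCACUGA, Mir181a-2 had CCACCGA and Mir181d CCACCGG.

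Whole hairpins of the duplicated copies are given next, with the longest run shared by both copies in capitals, because a read that lies within that run fits both genes.
Mir181a-1: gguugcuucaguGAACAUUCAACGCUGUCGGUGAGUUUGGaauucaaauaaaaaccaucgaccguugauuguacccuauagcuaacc
Mir181a-2: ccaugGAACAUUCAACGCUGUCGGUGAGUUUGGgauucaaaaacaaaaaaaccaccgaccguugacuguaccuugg
Mir181b-1: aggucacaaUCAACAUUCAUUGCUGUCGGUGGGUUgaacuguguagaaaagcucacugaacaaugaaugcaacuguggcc
Mir181b-2: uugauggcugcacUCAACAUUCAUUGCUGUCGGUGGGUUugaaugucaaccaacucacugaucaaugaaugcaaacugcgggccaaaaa
In the Mir181a copies the shared run was 28 bases long and reached 1 base before and 4 bases beyond the mature 5p arm. In the Mir181b copies it was 26 bases long, began 2 bases before the arm and ended with it, so the copies parted at the first base after the listed 24-base form, G in Mir181b-1 and U in Mir181b-2. The libraries were size-selected for short RNA, and the files tally reads mapped to several places in a row of their own. That such reads were assigned to no gene is inferred from this row. If so, the counts of these 4 genes cannot be read as levels of miR-181a-5p or miR-181b-5p. Their 3p arms occurred in no other hairpin of the RefSeq table, and neither did either arm of Mir181c or Mir181d. A mature arm shared with another hairpin was found for 4 of the 6 members, against 95 of 1018 genes of the count tables with a mature RefSeq sequence (9.33%).

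**Figure D1:**
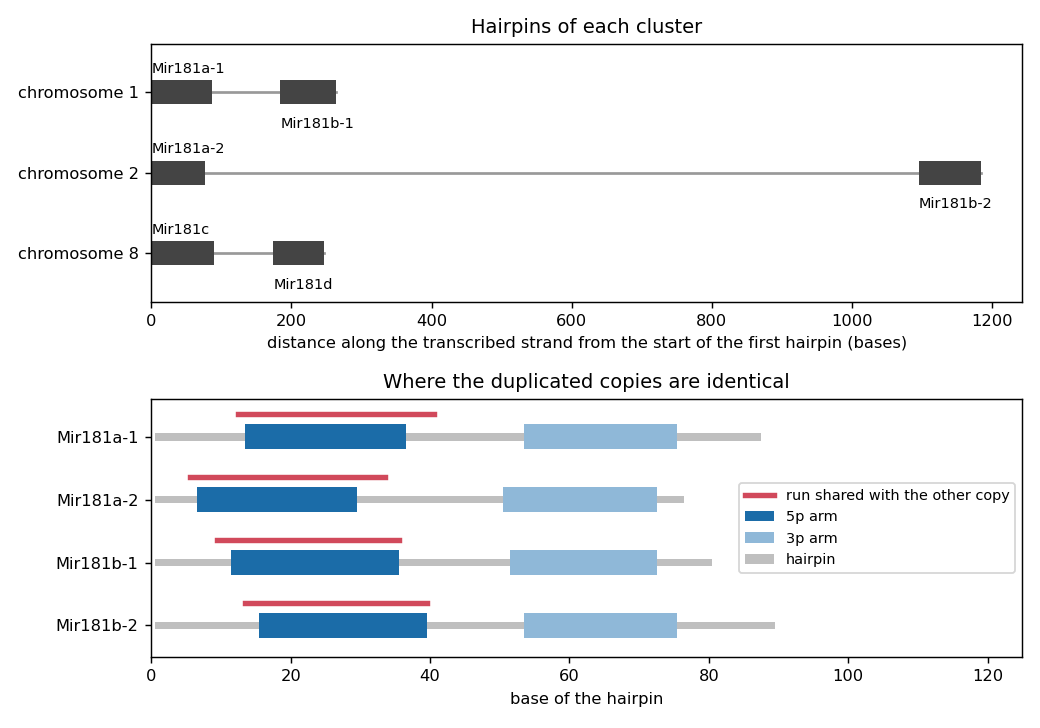
Upper panel: the hairpins of each cluster along the transcribed strand, with the distance in bases from the start of the first hairpin on the horizontal axis. Lower panel: base positions of the 5p arm, the 3p arm and the run shared with the other copy in the 4 duplicated hairpins, where the run covers the whole 5p arm (28 bases in the Mir181a copies, 26 in the Mir181b copies) and none of the 3p arm.

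The clusters differed in layout and in what the annotation places around them (mm10, GENCODE M21). Mir181a-1 (ENSMUSG00000065565.1, chr1:137966455-137966541, plus strand) and Mir181b-1 (ENSMUSG00000065458.1, chr1:137966639-137966718, plus strand) are 97 bases apart. Both lie in an intron of the noncoding host Gm4258. Mir181b-1 lies in an exon, and Mir181a-1 partly in an exon, of the long noncoding RNA A430106G13Rik on the same strand, and both lie in an intron of Gm26936 on the other strand. Mir181a-2 (ENSMUSG00000065423.1, chr2:38852735-38852810, plus strand) and Mir181b-2 (ENSMUSG00000065578.1, chr2:38853830-38853918, plus strand) are 1019 bases apart and lie opposite to an intron of Nr6a1, which encodes an orphan nuclear receptor. Mir181b-2 is also opposite to an exon of Gm44144. Mir181c (ENSMUSG00000065483.2, chr8:84178873-84178961, minus strand) and Mir181d (ENSMUSG00000076338.1, chr8:84178716-84178787, minus strand) are 85 bases apart in an intron of Nanos3, which encodes a germ cell RNA-binding protein, on the same strand. None of these overlapping genes was in the count tables, which hold only genes annotated as miRNA, so host transcripts were not measured.

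Counts on each gene's own strand were the main measure. They summed to 2843734 in replicate 1 and 3080062 in replicate 2, and levels are given as CPM, counts scaled to a total of 1000000 such reads. With a count of 0, a level of up to 1.05 CPM in replicate 1 or 0.974 CPM in replicate 2 would still be possible. Intervals and this limit cover counting error only, since no molecular identifiers are recorded. The reads mapped to several places numbered 2065487 and 2308583, or 27.5% and 25.9% of the reads in the files. Marker miRNAs of several cell types were present. The endocrine and neuroendocrine list, with 4 of 4 genes detected, summed to 39914 and 37795 CPM, most of it Mir375. The hepatocyte miRNA Mir122 had 29424 CPM in replicate 1 and 97850 CPM in replicate 2, and the endothelial miRNA Mir126a had 84263 and 45250 CPM. The tables hold no protein-coding genes, so the steroid-making cortex of the labelled gland could not be checked by its enzymes.

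All 6 members were detected at 1 CPM or more in both libraries, at levels between 14.4 and 1953 CPM. In these bulk samples fewer cells of a type and less RNA per cell cannot be told apart. The family summed to 13279 counts in replicate 1 and 11545 in replicate 2, which is 0.467% and 0.375% of the assigned reads, or 4209 ± 651 CPM (SD, n = 2). If reads that fit both copies were assigned to no gene, as inferred above, this sum leaves out such reads of miR-181a-5p and miR-181b-5p. It is then a sum of assigned reads and not the abundance of the family. No member had a read on the opposite strand, and each had the same count with and without regard to strand. The hairpins are 72 to 89 bases long, and since a miRNA read spans the mature form whatever the hairpin's length, CPM was not divided by length.

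Mir181c and Mir181d, whose arms occurred in no other hairpin of the RefSeq table, had the highest levels. Mir181c had 1953 CPM in replicate 1 (5554 counts, 95% Wilson interval 1902 to 2005 CPM) and 1308 CPM in replicate 2 (4030 counts, 1269 to 1349). Mir181d had 1752 CPM in replicate 1 (4982 counts, 1704 to 1801) and 1355 CPM in replicate 2 (4173 counts, 1314 to 1397). Mir181c led in replicate 1 and Mir181d in replicate 2, and their ranges over the libraries overlapped, so the order of this pair was not resolved. Their means, 1631 ± 456 and 1553 ± 281 CPM (SD, n = 2), placed them at ranks 69 and 70 of the 2202 genes.

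Mir181b-2 followed at rank 100. It had 754.6 CPM in replicate 1 (2146 counts, 723.4 to 787.2) and 917.5 CPM in replicate 2 (2826 counts, 884.3 to 952.0). This is the duplicated gene with the most assigned reads, and both values lay below all 4 values of Mir181c and Mir181d. Mir181a-1 was next at rank 183, with 179.7 CPM in replicate 1 (511 counts, 164.8 to 196.0) and 123.4 CPM in replicate 2 (380 counts, 111.6 to 136.4). The gap from Mir181b-2 to Mir181a-1 was 4.20-fold in replicate 1 and 7.44-fold in replicate 2.

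The remaining copies had few reads. Mir181a-2 had 15.8 CPM in replicate 1 (45 counts, 11.8 to 21.2) and 22.7 CPM in replicate 2 (70 counts, 18.0 to 28.7). Mir181b-1 had 14.4 CPM in replicate 1 (41 counts, 10.6 to 19.6) and 21.4 CPM in replicate 2 (66 counts, 16.8 to 27.3). Within each library the intervals of these genes overlapped, so neither was resolved as the lower. Apart from these and the pair of Mir181c and Mir181d, no neighbours in the order of mean levels overlapped between the libraries. The gene with the next higher mean, Mir181a-1, was above Mir181a-2 by 11.4-fold in replicate 1 and 5.43-fold in replicate 2.

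**Figure D2:**
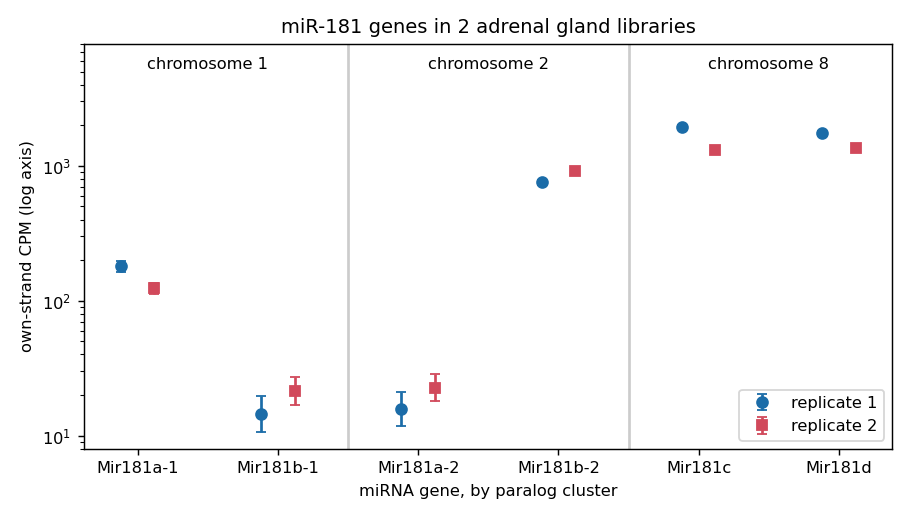
Own-strand CPM on a log axis for each member, grouped by cluster. Points are the libraries and bars are 95% Wilson intervals for counting error, with Mir181c and Mir181d above 1300 CPM in both libraries and Mir181a-2 and Mir181b-1 below 23 CPM.

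Most assigned reads of the family came from the chromosome 8 cluster. Mir181c and Mir181d together held 79.3% of the family's counts in replicate 1 (95% Wilson interval 78.6 to 80.0) and 71.1% in replicate 2 (70.2 to 71.9). The Mir181a-2 and Mir181b-2 cluster held 16.5% (15.9 to 17.1) and 25.1% (24.3 to 25.9). The Mir181a-1 and Mir181b-1 cluster held 4.16% (3.83 to 4.51) and 3.86% (3.53 to 4.23). Only for the chromosome 1 cluster did the intervals of the libraries overlap, and the order of the clusters was the same in both. As levels the clusters had means of 3184 ± 737, 855.4 ± 120.0 and 169.5 ± 34.9 CPM (SD, n = 2). Only in the chromosome 8 cluster were the 5p arms shared with no other hairpin of the RefSeq table; matches elsewhere in the genome were not tested. These shares compare assigned reads and not the output of the clusters.

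The duplicated copies were unequal, and in opposite ways for a and b. Of the reads assigned to the Mir181a copies, Mir181a-1 on chromosome 1 held 91.9% in replicate 1 (89.3 to 93.9) and 84.4% in replicate 2 (80.8 to 87.5). Of the reads assigned to the Mir181b copies, Mir181b-1 on the same chromosome held 1.87% in replicate 1 (1.38 to 2.53) and 2.28% in replicate 2 (1.80 to 2.89). Mir181b-2 thus exceeded Mir181b-1 by 52.3-fold and 42.8-fold, while Mir181a-2 of the same cluster was the lower a copy. The share of Mir181a-1 differed between the libraries by more than counting error, with intervals that did not overlap, whereas the intervals for Mir181b-1 overlapped.

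Within a cluster the a and b genes were as unequal. Mir181a-1 held 92.6% of its cluster in replicate 1 (90.1 to 94.5) and 85.2% in replicate 2 (81.6 to 88.2), whereas Mir181a-2 held 2.05% (1.54 to 2.74) and 2.42% (1.92 to 3.04) of its own. Mir181c held 52.7% of its cluster in replicate 1 (51.8 to 53.7) and 49.1% in replicate 2 (48.0 to 50.2), close to an even split. Over both copies, the Mir181a genes summed to 170.8 ± 34.9 CPM and the Mir181b genes to 854.0 ± 120.1 CPM (SD, n = 2). The sequence windows in which reads can be told apart differ between these pairs, as shown above: the 3p arm and its surroundings for all 4 copies, and in addition 5p reads longer than the mature form. Such a read must be longer by 1 base at its 3′ end or 3 bases at its 5′ end to part the Mir181b copies, against 5 and 2 bases for the Mir181a copies. This holds for reads that match their hairpin over the whole length, and reads with other bases at their ends were not examined. The files count reads per hairpin, so the arm a read came from was not resolved and its part in these shares was not tested.

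**Figure D3:**
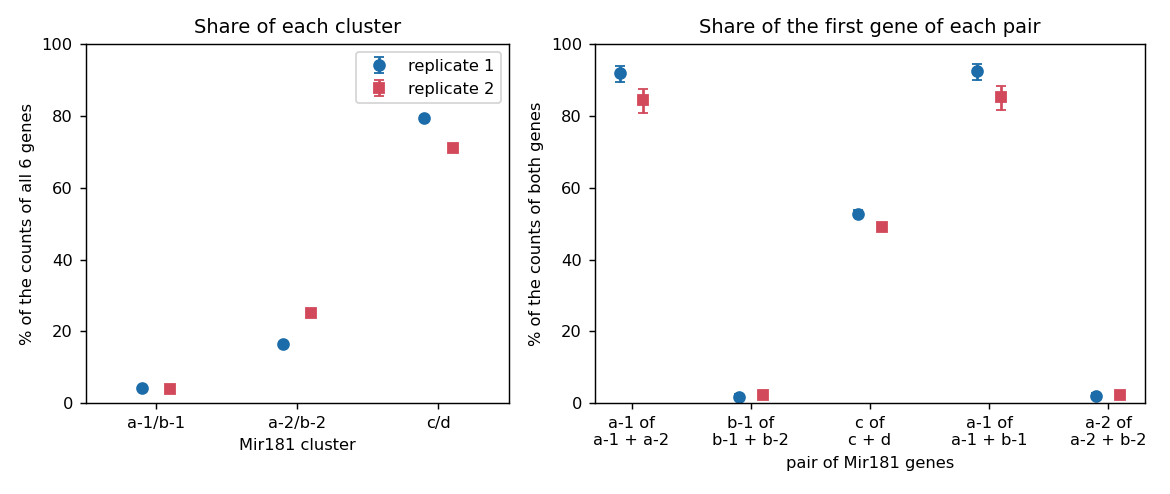
Left: percent of the counts of all 6 genes held by each cluster. Right: percent held by the first gene of each pair of Mir181 genes, with points for the libraries and bars for 95% Wilson intervals; Mir181a-1 lies above 80% of both Mir181a genes and Mir181b-1 below 3% of both Mir181b genes.

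Unequal copies were not limited to this family. Of 25 other pairs of duplicated or near-identical miRNA genes, 23 had both genes in the count tables and 17 had at least 100 counts in each library. In all 17 the same gene led in both libraries, and the larger one held 54.7% to 98.8% of the reads assigned to its pair, with a median of 81.5%. Here too the shares compare assigned reads and not the output of the copies. The Mir181b pair, at a mean of 97.9% for the larger gene, was exceeded by 1 of the 17, the Mir194 pair. The Mir181a pair, at 88.2%, was exceeded by 4. The Mir92-1 and Mir92-2 pair, of the proliferation-associated miR-17 clusters and their paralogs, lay just below the Mir181b pair at 96.6%. Hairpins of the Mir181a pair shared the longest run met among the pairs with both hairpins in the RefSeq table, 28 bases, the same length as in the pairs Mir30c-1 and Mir30c-2 (54.7%) and Mir24-1 and Mir24-2 (71.1%). Where this run lies relative to the mature arms was worked out only for the Mir181 pairs. Its part in the shares was not tested.

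**Figure D4:**
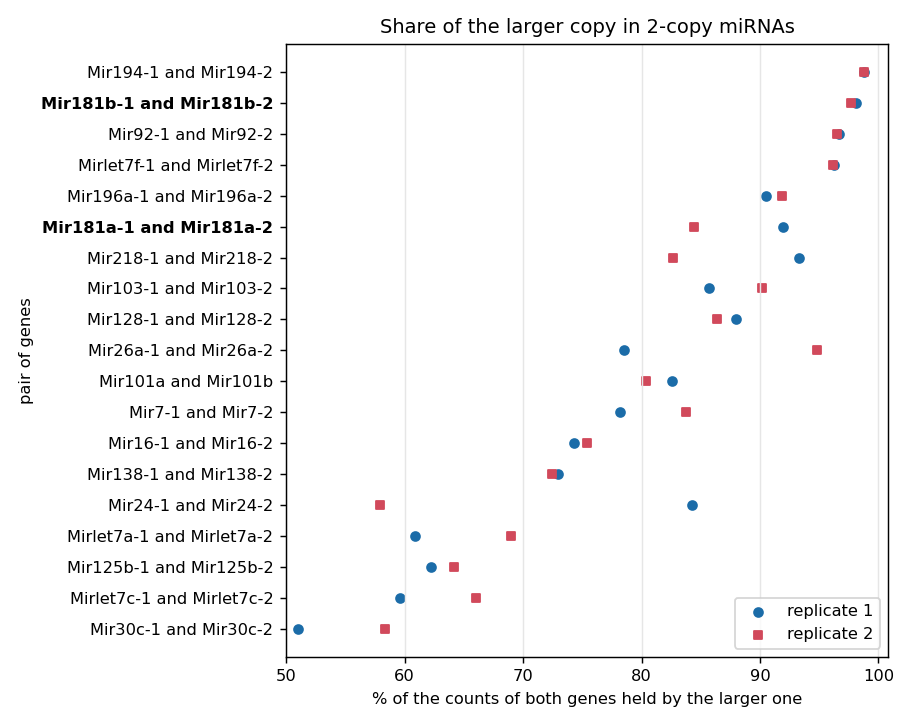
Percent of the reads assigned to each pair held by its larger gene, for the 19 pairs with at least 100 counts in each library, with the Mir181 pairs in bold. The axis starts at 50%, the value of an even split, and points are the libraries.

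Between the libraries the members moved in both directions, by less than 1.5-fold. Replicate 2 was set against replicate 1 by an exact two-sided binomial test given the library totals, over the 444 genes with at least 10 own-strand counts, with Benjamini-Hochberg adjustment at 0.05. Of the members, 3 were higher in replicate 1 and 1 in replicate 2, while 30.4% and 28.6% of all tested genes were called in these directions and 59.0% in either. The share of members called in either direction, 4 of 6, is thus near that of all tested genes. With a minimum of 100 counts, which all 6 members met, 229 of 285 genes (80.4%) were called, and the same 4 members. The test sets 2 libraries of a single group against counting error and compares no conditions.

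Mir181c had a log2 ratio of replicate 2 over replicate 1 of -0.58, with an adjusted p of 8.21e-84 in the exact binomial test. Mir181d had a log2 ratio of -0.37 and Mir181a-1 one of -0.54, with adjusted p of 5.7e-34 and 6.92e-08 in the same exact test. Mir181b-2 went the other way with a log2 ratio of 0.28 and an adjusted p of 2.48e-11 by this exact test. Mir181b-1 and Mir181a-2, with log2 ratios of 0.57 and 0.52, did not pass, at adjusted p of 0.0858 and 0.0992 by the exact test. With Mir122 left out of totals and test both passed, at adjusted p of 0.0360 and 0.0437. Over the 6 members the median log2 ratio was -0.04 and the median absolute log2 ratio 0.53, against 0.07 and 0.56 over all tested genes.

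By value alone, these directions did not follow the clusters throughout. Mir181c and Mir181d were both higher in replicate 1, and Mir181a-2 and Mir181b-2 both had their higher value in replicate 2. In the chromosome 1 cluster Mir181a-1 was higher in replicate 1, and Mir181b-1 had its higher value in replicate 2. The difference of Mir181b-1 did not pass the exact binomial test in the main setting, so a split within this cluster was not resolved there. Beside the binomial test, edgeR was run with an exact test on the negative binomial, at a biological coefficient of variation of 0.394. It was estimated from the same libraries taken as a single group, so it already holds the difference under test. Few calls could result, and this test cannot decide whether the members differ. In the edgeR exact test every member had an adjusted p of 1, and unadjusted p ranged from 0.431 for Mir181c to 0.799 for Mir181b-2. That test called 2 of the 444 genes (0.450%), and 24 (5.41%) had an unadjusted p below 0.05.

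**Figure D5:**
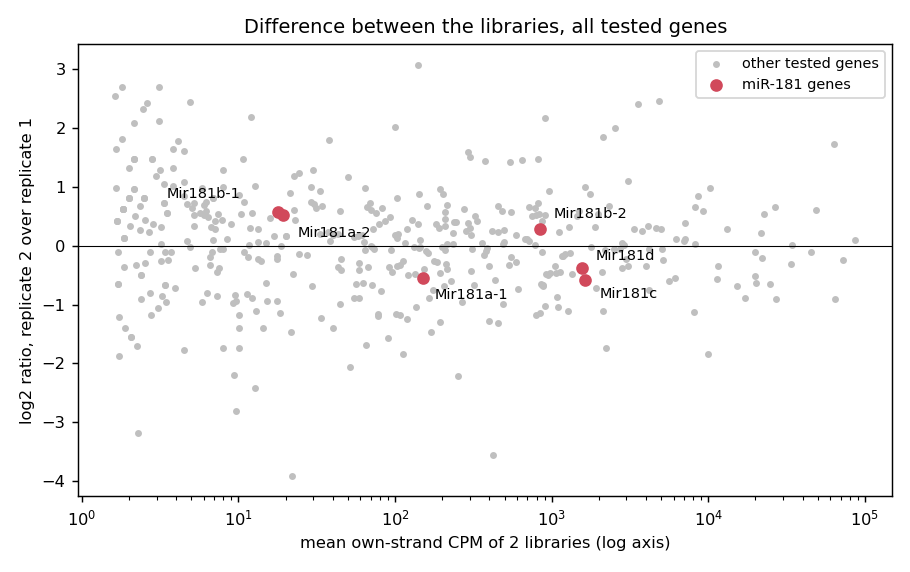
Log2 ratio of replicate 2 over replicate 1 against the mean own-strand CPM (log axis) for the 444 tested genes. The 6 members, in red, lie between -0.58 and 0.57, within the spread of the other genes.

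Markers of cell types also differed between the libraries, as did most genes. The exact binomial test called 59.0% of the 444 tested genes, 28.6% higher in replicate 2 and 30.4% higher in replicate 1. With a minimum of 100 counts it called 80.4%. Calls among markers are thus no trait of these lists. Of the 4 endocrine and neuroendocrine genes, 3 were higher in replicate 1 and 0 in replicate 2 by the exact binomial test. The median log2 ratio of this list was -0.71, while Mir375, which makes up most of its sum, had 0.01. The endothelial miRNA Mir126a was higher in replicate 1, with a log2 ratio of -0.90. Mir122 was higher in replicate 2, with a log2 ratio of 1.73. The striated muscle list summed to 929 and 3337 CPM in replicates 1 and 2, with 4 of 9 genes detected, nearly all of it Mir206, and Mir133a-2 was at 0. Smooth muscle and fibroblast genes, 2 of 2 detected, summed to 38591 and 31956 CPM, and red cell genes, 3 of 3 detected, to 719.8 and 321.7 CPM. Neither list moved as a whole: of the smooth muscle and fibroblast genes 1 was higher in replicate 2 (Mir145a) and 1 in replicate 1 (Mir143), and of the red cell genes 1 was higher in replicate 2 (Mir486) and 2 in replicate 1 (Mir451a and Mir144), by the same exact binomial test.

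Leukocyte miRNAs are of interest beside miR-181 because of its role in lymphocytes. All 5 genes of this list were detected and summed to 2065 and 2749 CPM in replicates 1 and 2. By the exact binomial test 3 of these were higher in replicate 2 and 0 in replicate 1, beside 28.6% and 30.4% of all tested genes. The list's median log2 ratio was 0.21. Mir150, known from mature lymphocytes, went from 291.9 to 786.3 CPM, while Mir142, found throughout blood cells, had 390.3 and 367.5 CPM. Mir142 and Mir223 did not pass the test, with log2 ratios of -0.09 and -0.03. Mir181c and Mir181d, lower in replicate 2, differed in direction from Mir150, and Mir181b-2 shared its direction. With 2 libraries a gene can only be higher in 1 or the other, so a shared direction does not link these genes to a cell type.

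The brain and neuron list summed to 1185 and 874 CPM in replicates 1 and 2. Of its 12 genes 6 were detected. By the exact binomial test 2 were higher in replicate 2 and 3 in replicate 1, beside 28.6% and 30.4% of all tested genes. Mir124a-1, Mir124a-3, Mir9-1 and Mir9-2 were at 0. Several genes of this list exist in near-identical copies, so a 0 does not show absence. The part of any of these cell types in the miR-181 values was not tested.

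Outside the family, the genes with a pattern closest to Mir181c, the highest member, were Mir106b, Mir425 and Mir615. Closeness was the Euclidean distance in log2(CPM + 1) over the 2 libraries, which reflects level more than pattern. Mir106b, from an intron of the replication gene Mcm7, had 2401 and 1459 CPM at a distance of 0.34, Mir425, which neighbours Mir191, had 1571 and 1132 CPM at 0.38, and Mir615 had 1796 and 1772 CPM at 0.45.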

How the data were processed

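For each library the authors deposited unnormalized counts for miRNA genes, made on mm10 with GENCODE M21 per the file descriptions, in 3 columns without header. From their values these are counts without strand, on the own strand and on the opposite strand. Which aligner, counter and mismatch limit they used is not given in the sources used here. Own-strand counts were the main measure and counts without strand a check. The rows for unmapped, multiply mapped, unassigned and ambiguous reads stayed out of totals; unmapped reads were 26.4% and 32.0% of replicates 1 and 2. Identifiers were matched to GENCODE M21 and sequences to RefSeq by symbol. The members and lists were chosen with earlier results of these data known. Named genes were the members, their overlapping genes, the 3 nearest genes to the highest member, and listed markers and 2-copy pairs.

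Log2 ratios added 0.5 counts. The binomial test was also run on simulated counts that held counting error only. That run cannot show how the test behaves with variation between animals. P-values of the binomial test measure only counting error and hold no term for the spread between animals. Those of the edgeR exact test use a spread estimated from the same libraries. Alternatives were counts without strand, TMM and DESeq2 factors, totals without Mir122, other minimums and pseudocounts, single replicates, pooled counts and the edgeR exact test. Scripts ran in Python 3.11.15 (scipy 1.17.1, pandas 2.3.3, numpy 2.4.6, matplotlib 3.10.9) and R 4.3.3 (DESeq2 1.42.0, edgeR 4.0.16).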

Additional observations from a re-analysis of the deposited data

Results flagged for a closer look

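Reads that mapped to several places lie outside the counts compared and far above the limit that a count of 0 allows. They numbered 2065487 in replicate 1 and 2308583 in replicate 2. The reads assigned to the miR-181 genes came to 0.643% and 0.50% of these numbers. How many of them came from miR-181a-5p or miR-181b-5p was not analysed here.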

How the results depend on the processing

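Of 145 alternative values, 132 stayed within the spread between libraries, on their side of the threshold or, for counts of genes, within 1.5 times, and none changed sign. Single replicates and shares from pooled counts stay within that spread by construction. Shares from counts without strand could not move, since the members' counts are the same. Another pseudocount could not change which genes pass, since the binomial test does not use it. The edgeR exact test was given the main log2 ratios, so no sign could change there. TMM and DESeq2 factors shift the libraries in opposite ways, so mean levels could hardly move. The family level was 4222 and 4228 CPM with them, against 4209 CPM. Counts without strand moved the family level to 5202 CPM and the clusters on chromosomes 1, 2 and 8 to 209.6, 1051 and 3941 CPM, because the members' counts are unchanged while the total is smaller. Genes called different between the libraries numbered 262, against 229 to 262 with other totals and minimums. The exact negative binomial test called 2, and the 4 called members no longer passed. Its coefficient of variation already holds the difference under test, so it cannot serve as an independent check. With Mir122 left out, 143 called genes were higher in replicate 2 and 109 in replicate 1, against 127 and 135, and the members' ratios rose with those of all genes, whose median went from 0.07 to 0.17. Leaving out a replicate leaves no difference to test. No paired analysis was possible because there is only 1 group. Depth limits Mir181a-2 and Mir181b-1, with 41 to 70 counts.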
